A study of Mus musculus with 35 samples.

Results

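E2A binding was compared between wild-type (WT) and IKDN pre-B cells, using the 2 deposited E2A peak lists on chromosomes 1 and 10 to 19, the chromosomes that the WT list covers in full. The members were all peaks on these chromosomes, 14269 of 16048 in the WT list and 8008 of 15392 in the IKDN list. Merged where they overlapped by at least 1 bp, they gave 17535 regions, set against 1213505 peaks in the 33 lists of the series. The WT group was 1 chromatin immunoprecipitation (ChIP-seq) library from pre-B progenitors of WT mice. The IKDN group was 1 library from the same kind of progenitor of mice that carried the IKDN allele with CD2 Cre. IKDN stands for a dominant-negative form of Ikaros, and Cre under CD2 control acts in lymphoid cells. Both cultures were grown attached to stroma and were used at passages 3 to 8, and the labels give neither the age of the mice nor whether animals were pooled. With 1 library a genotype there is no replicate error, so no difference below was tested, and intervals are exact Clopper-Pearson 95% intervals that cover counting error only. The catalogue number on the label differs too, sc-349x for the WT and sc-6059x for the IKDN E2A library, so genotype, antibody and library cannot be told apart.

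E2A is the product of Tcf3, made as the splice forms E12 and E47. It is a basic helix-loop-helix protein that binds E-boxes, with the pattern CANNTG, as a dimer with itself or another E protein. Together with EBF1 and PAX5 it sets up the B cell programme, and it acts on the pre-B cell receptor and recombination genes. Id proteins pair with E proteins and keep them off DNA, while the adaptor LMO2 can join E proteins to other factors. Ikaros, encoded by Ikzf1, is a zinc-finger protein that restrains adhesion and proliferation genes in pre-B cells.

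The promoters below show what the comparison is about. They are stretches of at most 150 bases before the start site around the centre of an E2A region, from RefSeq (GRCm38.p6, the mm10 build), and capitals mark each CANNTG that lies inside the stretch. The first group, with the promoter peak in both lists, is Igll1 at chr16:16864070-16864219 on the minus strand, Vpreb1 at chr16:16869256-16869379 on the minus strand and Eef2 at chr10:81176483-81176630 on the plus strand. Igll1 and Vpreb1 encode the surrogate light chain of the pre-B cell receptor, and Eef2 is a translation factor that most cells use.
Igll1: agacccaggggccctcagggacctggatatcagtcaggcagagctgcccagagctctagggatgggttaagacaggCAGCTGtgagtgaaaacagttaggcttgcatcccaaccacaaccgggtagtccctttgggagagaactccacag
Vpreb1: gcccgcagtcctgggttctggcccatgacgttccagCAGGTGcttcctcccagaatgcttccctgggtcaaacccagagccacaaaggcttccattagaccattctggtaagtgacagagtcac
Eef2: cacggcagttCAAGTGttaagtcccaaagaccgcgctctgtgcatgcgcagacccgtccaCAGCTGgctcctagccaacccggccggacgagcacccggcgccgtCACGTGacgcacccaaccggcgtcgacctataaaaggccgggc
The second group, with the promoter peak in the WT list alone, is Id2 at chr12:25096194-25096342 on the minus strand and Fyn at chr10:39369693-39369798 on the plus strand. Elsewhere both genes had IKDN peaks. Counted by name, Id2 had 4 WT and 2 IKDN peaks in all and Fyn 10 and 6. Id2 encodes an inhibitor of E proteins and Fyn a Src-family kinase.
Id2: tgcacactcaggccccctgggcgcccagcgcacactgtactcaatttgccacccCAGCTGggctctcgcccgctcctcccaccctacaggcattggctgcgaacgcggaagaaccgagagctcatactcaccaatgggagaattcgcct
Fyn: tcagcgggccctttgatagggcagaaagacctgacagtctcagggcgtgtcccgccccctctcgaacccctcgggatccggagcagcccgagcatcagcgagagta
The third group, with a peak in the IKDN list alone, is Ajuba at chr14:54577673-54577822 on the minus strand, Hlf at chr11:90391002-90391151 on the minus strand and Itga3 at chr11:95076811-95076960 on the minus strand. Ajuba is a LIM-domain protein of cell junctions and the Hippo pathway, Hlf a transcription factor of stem cells, and Itga3 an integrin subunit.
Ajuba: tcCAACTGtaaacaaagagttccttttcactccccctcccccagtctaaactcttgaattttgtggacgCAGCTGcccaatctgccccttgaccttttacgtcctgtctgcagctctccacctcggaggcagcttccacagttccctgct
Hlf: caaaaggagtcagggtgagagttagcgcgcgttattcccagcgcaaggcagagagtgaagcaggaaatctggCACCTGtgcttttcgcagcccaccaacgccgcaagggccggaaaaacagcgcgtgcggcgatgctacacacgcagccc
Itga3: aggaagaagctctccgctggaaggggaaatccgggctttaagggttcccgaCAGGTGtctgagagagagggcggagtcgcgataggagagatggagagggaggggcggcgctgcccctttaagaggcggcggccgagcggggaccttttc
They were chosen for the roles of the genes and are not typical of their class. A selection of 29 such stretches was kept at genes of the lists used here, each before the most upstream start site of its gene. It leaves out other such stretches and does not cover every chromosome compared. Within this selection a CANNTG was in 7 of 12 in the shared class, 4 of 12 in the WT-only class and 3 of 5 in the IKDN-only class. These counts describe the selection alone, and the stretch at Fyn holds none. The Igll1 promoter peak scored 255.3 in WT (rank 51) and 96.7 in IKDN (rank 37), and the Vpreb1 promoter peak 114.1 (rank 293) and 27.9 (rank 572). The Ajuba, Hlf and Itga3 promoter peaks scored 5.76, 6.05 and 4.03 in IKDN, in the lower ranks of that list.

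The 2 lists shared 4742 regions. They made up 33.2% of the WT peaks (32.5% to 34.0%) and 59.2% of the IKDN peaks (58.1% to 60.3%). Another 9527 regions were WT-only and 3266 were IKDN-only, so the 3 classes held 54.3%, 27.04% and 18.6% of all regions with WT-only first and IKDN-only last. The WT list was longer on each of the 11 chromosomes, from 1.57 times on chromosome 11 to 2.06 times on chromosome 18. Of the 8 factors and cofactors mapped in both genotypes, E2A and Aiolos had more peaks in WT, 1.78 and 1.36 times, and EBF1, PAX5, ETS1, IRF4, TEAD1 and MED1 had 0.485 to 0.868 times as many in WT as in IKDN on the same chromosomes. The share of WT peaks found again in IKDN was lower for E2A, at 33.2%, than for PAX5 (79.8%), MED1 (76.0%), EBF1 (74.6%), ETS1 (69.2%), IRF4 (64.2%) and TEAD1 (55.6%), and higher than for Aiolos (13.7%). The lists differ in length. With the WT list cut to its 8008 highest scores, 50.5% were shared. Treated in the same way, PAX5 was at 74.4%, EBF1 at 66.1%, MED1 at 62.4%, ETS1 at 58.8%, IRF4 at 51.7%, TEAD1 at 45.9% and Aiolos at 16.6%.

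Overlap depended on Peak Score, the score deposited with each peak. WT scores ran from 5.29 to 1737.7 with a median of 11.2, and IKDN scores from 3.74 to 1112.7 with a median of 7.20. Scores under 10 were all whole steps of 0.588 in the WT list and of 0.288 in the IKDN list. If 1 step is 1 read per 10 M reads, the libraries held about 17.0 M and 34.7 M reads, but the scale is not given in the sources used here. Of WT peaks in the highest 10% of scores, 88.7% were shared, and of those in the lowest 10%, 7.85%. The IKDN list went from 86.5% to 41.1%. Of the 250 highest WT peaks 96.8% had an IKDN peak, and of the 250 highest IKDN peaks 93.6% had a WT peak. Over the 4742 shared regions the Spearman correlation of the scores was 0.605, a description across regions of 1 library pair, and 529 regions were in the top 10% of both lists. WT-only peaks were mostly low, with a median score of 9.41 against 21.8 for shared WT peaks, and 161 of 9527 reached the top 10%. IKDN-only peaks had a median of 6.05 against 8.35, and 108 of 3266 reached the top 10%.

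**Figure D1:**
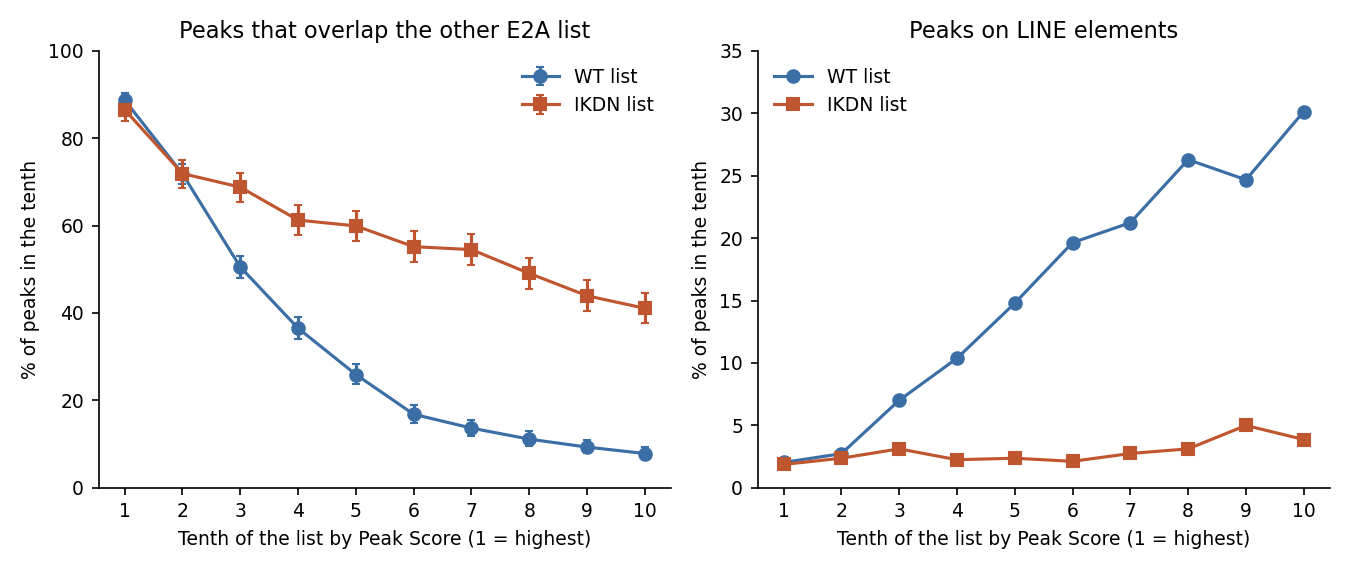
Left, the percentage of peaks in each 10% of an E2A list by Peak Score that overlap a peak of the other list (points, with exact 95% intervals as bars). Right, the percentage of the same peaks on LINE elements. WT (circles) goes from 88.7% to 7.85% shared while its LINE share goes from 2.03% to 30.1%, and IKDN (squares) ends at 41.1% shared and 3.87% LINE.

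The catalogue numbers can be set beside the sites found. The number sc-6059x is also on the labels of the IRF4 and PAX5 libraries, 5 libraries in all, and sc-349x is also on those of ETS1 and LHX2 in IKDN. Of the 3000 highest IKDN E2A peaks, 54.9% overlapped the 3000 highest WT E2A peaks and 52.2% the highest LMO2 peaks. The share was 29.1% for Ikaros in WT, and 22.4% for IRF4 and 16.7% for PAX5 in IKDN. Against whole lists, which differ in length, it was 73.2% for WT E2A, 75.7% for LMO2 and 59.6% for Ikaros. For IRF4 and PAX5 in IKDN it was then 61.5% and 70.1%. Of the 3000 highest WT E2A peaks, 33.4% overlapped the highest LMO2 peaks, 18.5% those of ETS1 and 15.0% those of LHX2 in IKDN. E-boxes were counted in 14782 RefSeq promoter windows of 300 bp, from 250 before to 50 after a start site. CAGCTG, an E-box form that reads the same on both strands and is 1 of the forms of CANNTG, was in 16.6% of all windows. It was in 39.6% (35.8% to 43.5%; 259 of 654) of windows that hold the centre of a shared region, in 28.9% (22.2% to 36.4%; 48 of 166) of those with an IKDN-only region and in 17.2% (15.0% to 19.6%; 188 of 1094) of those with a WT-only region. By list, the share was 36.8% for IKDN E2A, 31.3% for LMO2 and 25.6% for WT E2A, and 14.5%, 15.3%, 15.4% and 14.3% for IRF4, PAX5, ETS1 and LHX2 in IKDN. MED1 had the lowest share, 12.9% in WT. The general pattern CANNTG was in 71.8% of all windows, in 86.1% with a shared, 72.3% with an IKDN-only and 63.4% with a WT-only region. By list it was in 80.8% for IKDN E2A, 79.2% for LMO2 and 71.8% for WT E2A. For IRF4, PAX5, ETS1 and LHX2 in IKDN it was in 60.7%, 61.0%, 60.9% and 65.5%, all under the share of all windows.

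The E-box form CAGCTG followed score in both lists. In 4 equal parts of the WT list from high to low, CAGCTG was in 53.2%, 24.4%, 16.0% (12.6% to 19.9%) and 12.8% (9.76% to 16.4%) of windows, and in 4 parts of the IKDN list in 52.5%, 52.3%, 37.9% and 22.2% (17.7% to 27.2%). The lower 2 parts of the WT list thus had a share at or under that of all promoters, and each IKDN part had a higher one. WT-only regions of the highest WT part had CAGCTG in 61.9% of their windows (45.6% to 76.4%; 26 of 42). Another form, CACGTG, did not follow score, though its share in each part was above the 7.49% of all windows. From high to low it was in 13.2%, 15.7%, 15.8% and 13.0% of windows in the WT list. For IRF4, PAX5, ETS1 and LHX2 in IKDN it was in 11.9%, 12.1%, 11.9% and 9.82%. In the 4 parts of the IKDN E2A list CACGTG was in 22.5%, 10.1%, 13.2% and 15.8%. These shares describe promoters, since no genome sequence was used for peaks elsewhere, and a match is not a proven site.

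**Figure D2:**
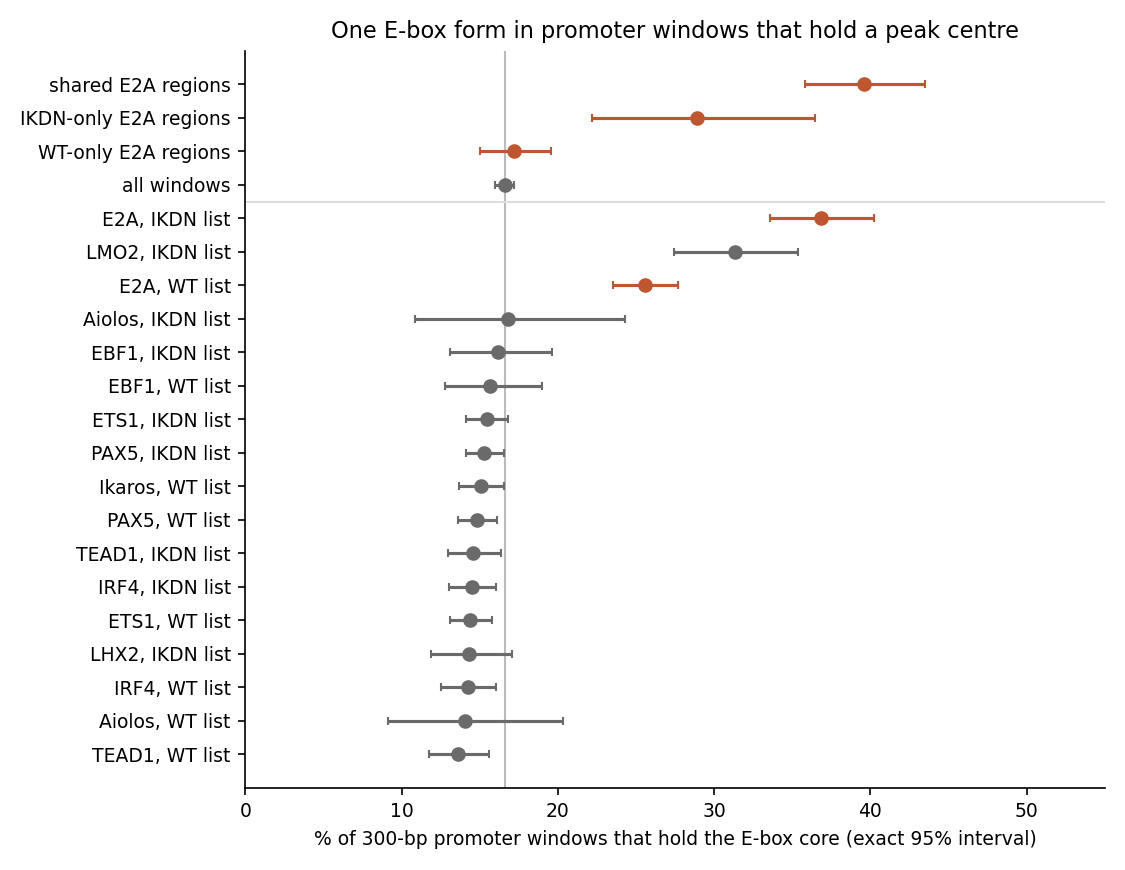
Percentage of 300-bp promoter windows that hold CAGCTG, for windows with the centre of a region of each E2A class, for all windows (vertical line, 16.6%) and for windows with a peak centre of each factor list. Bars are exact 95% intervals. The intervals of the shared and IKDN-only classes, both E2A lists and LMO2 lie above the line. The WT-only class of the whole lists (17.2%) and the other lists drawn (13.6% to 16.8%, without MED1) lie near or below it.

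The classes differed in where they lay. By the deposited annotation, promoters held 20.2% (19.05% to 21.4%) of shared, 17.3% (16.6% to 18.1%) of WT-only and 8.97% (8.01% to 10.004%) of IKDN-only regions. The order of the first 2 turned, with WT-only above shared, in the top 50% of each list (21.3% and 13.2%), without LINE (22.4% and 20.7%) and at scores of at least 5.29 (19.01% and 16.2%), while IKDN-only stayed lowest in each. Introns held 35.4%, 30.7% and 42.5% in the same order, and intergenic DNA 36.7%, 45.5% and 44.0%. The median distance to the nearest start site was 12.03 kb for shared, 21.2 kb for WT-only and 23.1 kb for IKDN-only regions. Low-scored shared IKDN peaks were often promoter peaks: 36.3% in the lowest 25% of scores against 6.85% in the highest 25%.

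A large part of the WT-only class lay on LINE elements, the long interspersed repeats that include the mouse L1 family. There were 2168 such regions, 22.8% of WT-only (21.9% to 23.6%), against 2.15% of shared and 3.95% of IKDN-only. Most were on the young L1Md subfamilies, with 1810 WT-only, 6 shared and 22 IKDN-only regions. The 1816 WT E2A peaks on L1Md had a median score of 8.24, and 3 were in the top 10%. Among them 34.4% overlapped a TEAD1 peak and 32.0% an ETS1 peak in WT, but 1.10% an Ikaros peak and 0.33% an IKDN E2A peak. Over whole lists LINE held 15.9% of WT E2A and 2.88% of IKDN E2A peaks, beside 26.6% and 23.6% of PAX5 and 10.1% and 6.36% of ETS1 in WT and IKDN. Reads of young L1 copies can match many places, and the part of mapping or antibody in these peaks was not tested. Without LINE peaks 38.6% of WT peaks were shared.

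Histone marks and other factors, mapped in other libraries, separated the classes further. H3K27ac, the acetylation found at regulatory elements in use, covered 80.9% of shared regions in WT and 79.8% in IKDN. IKDN-only regions had it in 39.3% (37.7% to 41.0%) in WT and 71.2% (69.6% to 72.8%) in IKDN, and WT-only regions in 49.3% (48.3% to 50.3%) in WT and 39.2% (38.2% to 40.2%) in IKDN. Of these, 34.9% of IKDN-only regions had H3K27ac in IKDN alone and 3.06% in WT alone, while 12.3% of WT-only regions had it in WT alone, 2.12% in IKDN alone and 48.5% in neither. H3K4me1, a mark of enhancers, behaved in the same direction, with 49.0% in WT and 75.1% in IKDN at IKDN-only and 37.1% and 25.9% at WT-only regions. In the top 25% of IKDN scores, IKDN-only peaks had H3K27ac in 37.8% in WT and 85.5% in IKDN, and in the top 25% of WT scores WT-only peaks had it in 70.6% in WT and 39.1% in IKDN. Seen from the mark, 17.8% of WT-only H3K27ac peaks over 2500 bp from a start site held a WT E2A peak and 4.74% an IKDN E2A peak, and of the IKDN-only ones 3.96% and 12.2%.

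The B cell factors PAX5, EBF1 and IRF4 and the ETS factor ETS1 were all found more often at IKDN-only E2A regions in IKDN than in WT. PAX5 covered 20.7% in WT and 57.1% in IKDN, ETS1 9.92% and 44.0%, IRF4 9.19% and 43.3%, and EBF1 13.6% and 26.9%. TEAD1, the DNA-binding partner of YAP in the Hippo pathway, covered 9.55% and 44.1%. At WT-only regions the 2 genotypes were closer, with PAX5 at 42.7% and 34.6%, ETS1 at 31.8% and 28.7%, IRF4 at 17.1% and 18.8% and TEAD1 at 17.1% and 18.9%. The IKDN lists of these factors are longer, and the part of list length in the gap at IKDN-only regions was not tested. LMO2, mapped in IKDN cells, covered 57.9% of shared, 48.7% of IKDN-only and 9.03% of WT-only regions, and the LIM-homeodomain factor LHX2 41.1%, 36.1% and 9.45%. At least 1 of LMO2, LHX2 and TEAD1 was at 69.5% of IKDN-only regions and all 3 at 588 of 3266. LMO2 went with score, from 76.7% of IKDN-only peaks in the top 25% to 29.5% in the lowest 25%. Ikaros itself, mapped in WT cells, covered 69.7% of shared, 33.7% of WT-only and 27.8% of IKDN-only regions.

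**Figure D3:**
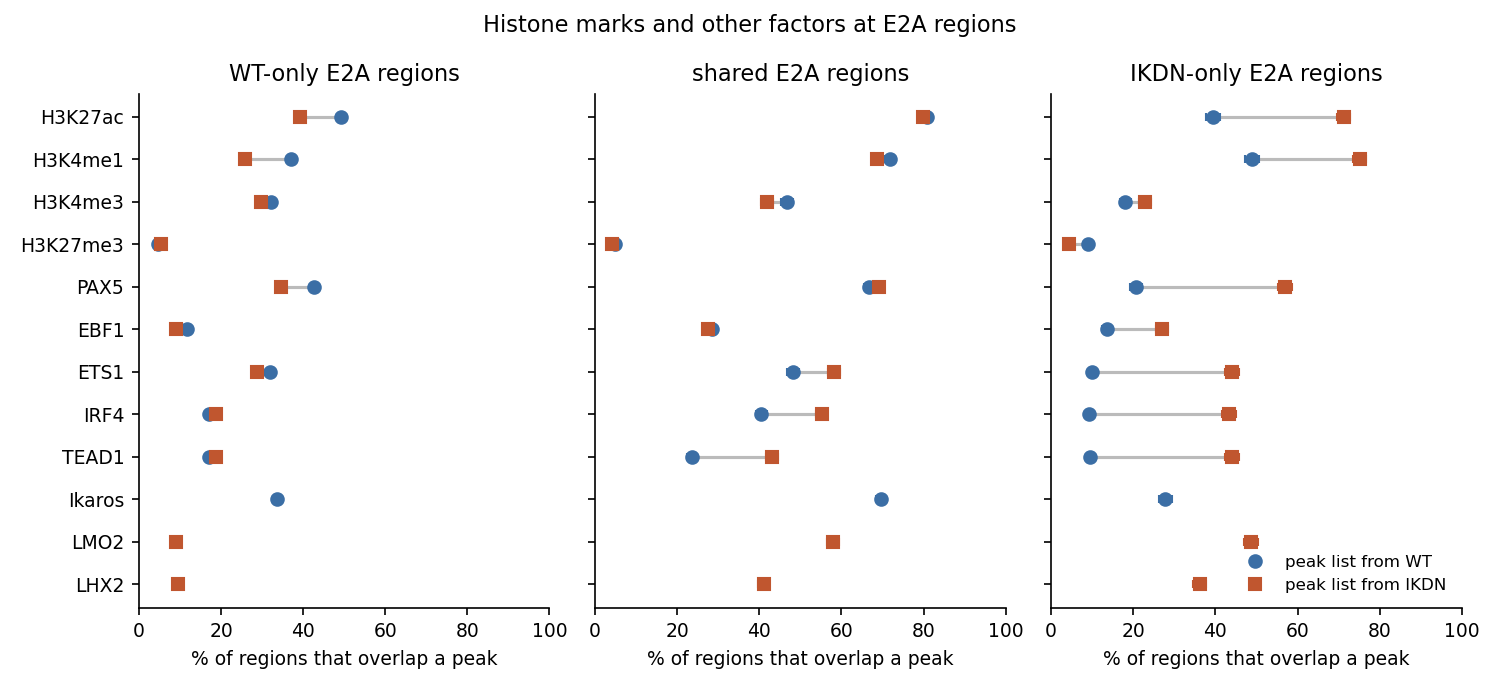
Percentage of WT-only, shared and IKDN-only E2A regions that overlap a peak of each histone mark or factor, by peak lists from WT (circles) and IKDN (squares), with exact 95% intervals. Ikaros has a WT list only, and LMO2 and LHX2 an IKDN list only. At IKDN-only regions the IKDN values lie to the right of the WT values for H3K27ac (71.2% against 39.3%), PAX5, EBF1, ETS1, IRF4 and TEAD1, and at shared regions H3K27ac differs by about 1 point.

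Single sites show the range. The highest site in both lists was in an intron of Tmem260 (chr14:48475758-48475936), with scores of 1737.7 and 1112.7, and the next, 1014 kb from the start of 1700019M22Rik, scored 1259.4 and 423.5 and overlapped no peak of the 31 other lists. The other top shared sites, nearest to Dyrk1a, Gtpbp4, Txndc11, Rimbp3, Trim8, Thoc3, Galnt4 and Dgkd, were in 7 to 21 of these lists. The Txndc11 site lay on a ribosomal RNA (rRNA) repeat. Repeats of that class held 43 shared, 2 WT-only and 5 IKDN-only regions. The highest WT-only site, in an intron near 1700022E09Rik, scored 478.2 (rank 6) and lay under H3K27ac in WT and not in IKDN. Next came sites nearest to Lama1, Tnk2os, Rgs14, Erg, Slc6a19, A630089N07Rik, Plk2, Pcca and Scgb1a1, with scores of 124.7 to 231.8. Those at Lama1, A630089N07Rik and Plk2 lay on CCCTAA or TTAGGG repeats, the telomere sequence. The highest IKDN-only site, in the 3' UTR annotation near 6430706D22Rik, scored 174.8 (rank 9), followed by sites nearest to Pyroxd2, 2310043O21Rik, Mir204, Asb1, Rbfox3, Cr2, Trio, Gprc5c and Septin9 at 56.4 to 97.9. All 10 of these were under H3K27ac in IKDN, 3 were under it in WT, and 9 were under an LMO2 peak. Among shared sites the largest gains in percentile rank were near Celf4 (6.47 to 32.0), Kcnma1 (7.06 to 86.7), Mir7223, Mir6351 and Mapk8, all 5 with LMO2 and TEAD1 in IKDN. The largest losses were near Mbp (74.7 to 4.32), 2510003E04Rik, Tmem121, Nfkbia and Cdip1, of which 1 had LMO2 and none TEAD1.

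Peaks were then counted per gene by the nearest gene the authors gave. A gene was called where 1 list had at least 2 more peaks and at least 2 times as many. Of 6770 genes with a peak, 300 (4.43%) had more in IKDN and 1553 (22.9%) had fewer, beside lists of 14269 and 8008 peaks. At equal numbers of peaks 554 of 5280 (10.5%) had more and 495 (9.38%) fewer. The 2 files carry different gene annotations, so 148 of the 4742 overlapping pairs (3.12%) had different gene names for the same place. For that reason counts were repeated with 1 set of protein-coding start sites for both lists, called the common start sites below, which gave 234 genes (3.87%) with more and 1461 (24.2%) with fewer of 6046. The gains by name of 0610039H22Rik and 9430078K24Rik (0 to 15 each), 4833415N18Rik and 4930517M08Rik (0 to 10 each) and Gm15326 (0 to 8) were of this kind in part. In this order, 9, 10, 6, 6 and 5 of the peaks overlapped a WT peak under another name, and the rest overlapped none. At 5530401A14Rik (0 to 7 by name) no peak overlapped a WT peak. All 7 were under H3K27ac in IKDN, 6 under LMO2 and 6 under TEAD1. Bcl2, the survival factor, went from 6 to 0 by name and from 6 to 6 by common start sites.

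Gains that held under both assignments included Kcnma1, a potassium channel (1 WT and 11 IKDN peaks; 1 and 12 by common start sites), Trio, an exchange factor for small GTPases (2 and 11 under both), Atp8a2, a lipid flippase (0 and 9), and Wnk2, a kinase (1 and 9). The highest Kcnma1 peak scored 86.7 in IKDN and 7.06 in WT, at 1 shared site 368 kb inside the gene. At Trio the highest, in the first intron at 43.8 kb, scored 59.0 with no WT peak, and of the 11 IKDN peaks 10 were under H3K27ac in IKDN and 1 under H3K27ac in WT. At Atp8a2 7 of 9 and at Wnk2 9 of 9 were under H3K27ac in IKDN. Losses with the largest counts were in regions of receptor genes (Mir6388, A430107P09Rik and Olfr1507) or in long gene-poor stretches, where many peaks were on LINE: all 16 at Cdh20, 16 of 17 at Tsn, 14 of 18 at Brinp3, 9 of 15 at Ncam2 and 12 of 21 at 4930474G06Rik. Other losses were mostly off LINE. 2010111I01Rik had 15 and 1 by name and 17 and 4 by common start sites, and Arid1b, a chromatin remodelling subunit, had 20 and 6 by name but 23 and 16, which did not meet the rule, by common start sites.

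In the gene lists that follow, counts of called genes are to be read against 4.43% with more and 22.9% with fewer over all genes with a peak, and at equal numbers against 10.5% and 9.38%. The lists also count genes without a peak. Genes with a peak were 17 of 18 B lineage, 19 of 21 integrin, 11 of 14 Hippo and 16 of 17 growth factor genes. They were 13 of 14 stem, 12 of 19 junction, 11 of 12 cell cycle, 6 of 9 housekeeping, 9 of 10 T cell, 9 of 14 myeloid and 7 of 16 stromal genes. Tcf3, the E2A gene, had 5 WT peaks, at scores of 57.1, 21.8, 18.8, 18.2 and 16.5, and 1 IKDN peak at 6.05, which lay at the highest WT site 10.9 kb upstream. Tcf4, another E protein gene, had 7 and 10, and Id2 4 and 2 by name but 17 and 19 by common start sites. At equal numbers Tcf4 (4 and 10) was called with more, and Tcf3 (5 and 1) and Id2 (4 and 2, by name) with fewer. Id4 had none. Ebf1 had 5 WT and 1 IKDN peaks by name and 23 and 9 by common start sites. Its highest WT peak by name, 40.0 kb upstream with a score of 93.5, had no IKDN peak. Irf4 had 9 and 6, Ikzf1 5 and 4, Ikzf3 (Aiolos) 3 and 2, and Polr2a 1 and 1. Both Ikzf1 sites with the highest WT scores, 55.9 and 55.3, were kept in IKDN, at 44.9 and 8.92. Of the 7 genes of mapped factors, 6 of them with a peak, 2 had fewer and none had more, beside 22.9% and 4.43% over all genes. At equal numbers Ebf1 was not called.

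The B lineage identity genes held 85 WT and 49 IKDN peaks, much as all genes together held 14269 and 8008. Of 18 genes none was called with more and 3 with fewer, no larger a share than the 22.9% over all genes: Mef2c, a transcription factor of B and muscle cells (15 and 5; 17 and 8 by common start sites), Ebf1, and Blk, a kinase that signals from the B cell receptor (3 and 0). The Blk peaks scored 113.5, 16.5 and 15.9, at 39.8 kb, at the promoter and at 27.8 kb, and all 3 were under H3K27ac in WT and none in IKDN. Cd79b, Fcrla, Cd24a and Faim3 had equal counts by name, at 3, 5, 2 and 1. Of 22 pre-B receptor and recombination genes none was called with more and 4 with fewer, again under 22.9%, and their peaks numbered 101 and 71. The 4 were Cblb, a ubiquitin ligase (11 and 3), Bcl2 by name only, Il7r, a cytokine receptor (3 and 1), and Stat5a, which acts after it (2 and 0). Igll1, Vpreb1, Vpreb3, Socs2, Socs3, Rasgrp3 and Inpp5d had the same number in both, and Syk, Dntt and Sox4 had more in IKDN without meeting the rule. At equal numbers of peaks Blk alone had fewer in the first list, and in the second Bcl2, by name only, had fewer and Sox4 had more. The median difference was -1 peak per gene in both lists, as over all genes.

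Integrin and focal adhesion genes had more E2A peaks in IKDN although the list is shorter, 78 against 57 in WT, and 93 against 68 by common start sites. Of 21 genes 3 were called with more, namely Trio, Actn1 and Itga5, and 1, Itgb7, with fewer, where all genes gave 4.43% and 22.9%. At equal numbers 8 had more and 1 fewer, where all genes gave 10.5% and 9.38%. The median difference was 1 peak per gene, against -1 over all genes with a peak. Actn1, an actin crosslinker of adhesions, had 1 WT peak, at 7.65, and 8 IKDN peaks, at 3.74 to 10.7. Itga5 had 0 and 2 by name and 1 and 2 by common start sites. Tns1, a focal adhesion protein, had no peak by name and 1 and 7 by common start sites. Vcl and Ptk2, vinculin and the focal adhesion kinase, each had 3 and 5. With IKDN scores limited to the WT minimum of 5.29, the balance of called genes in this list turned to 1 more gene with fewer peaks.

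The Hippo list, 14 genes of that pathway and YAP-TEAD targets, had 19 WT and 20 IKDN peaks and a median difference of 0. Against 4.43% and 22.9% over all genes, it had 4 genes with more, namely Ptpn14, Ajuba, Nuak2 and Wwc1, and 2 with fewer, namely Stk3 (5 and 0) and Crim1 (6 and 3, of which 5 WT peaks were on LINE). Ptpn14, a phosphatase that restrains YAP, had no WT peak and 6 IKDN peaks, at scores of 54.7, 15.8, 10.7, 9.50, 6.62 and 5.47, all under H3K27ac in IKDN, 1 under it in WT, 4 under LMO2 and 3 under TEAD1. Crim1 had more in IKDN once LINE peaks were left out, and was called with more at equal numbers (0 and 3). Among growth factor genes 2 of 17 had more and 3 fewer, the latter no larger a share than over all genes. The 2 were Spry4, an inhibitor of receptor signalling (5 and 11), and Pdgfrb, a growth factor receptor (0 and 4). The Spry4 intron site 4 kb inside the gene scored 45.9 in WT (rank 1151) and 72.3 in IKDN (rank 86). The 3 were Smad2 (4 and 1), Bmpr1a (3 and 1) and Egfr (2 and 0), of which Smad2 alone was called at equal numbers.

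**Figure D4:**
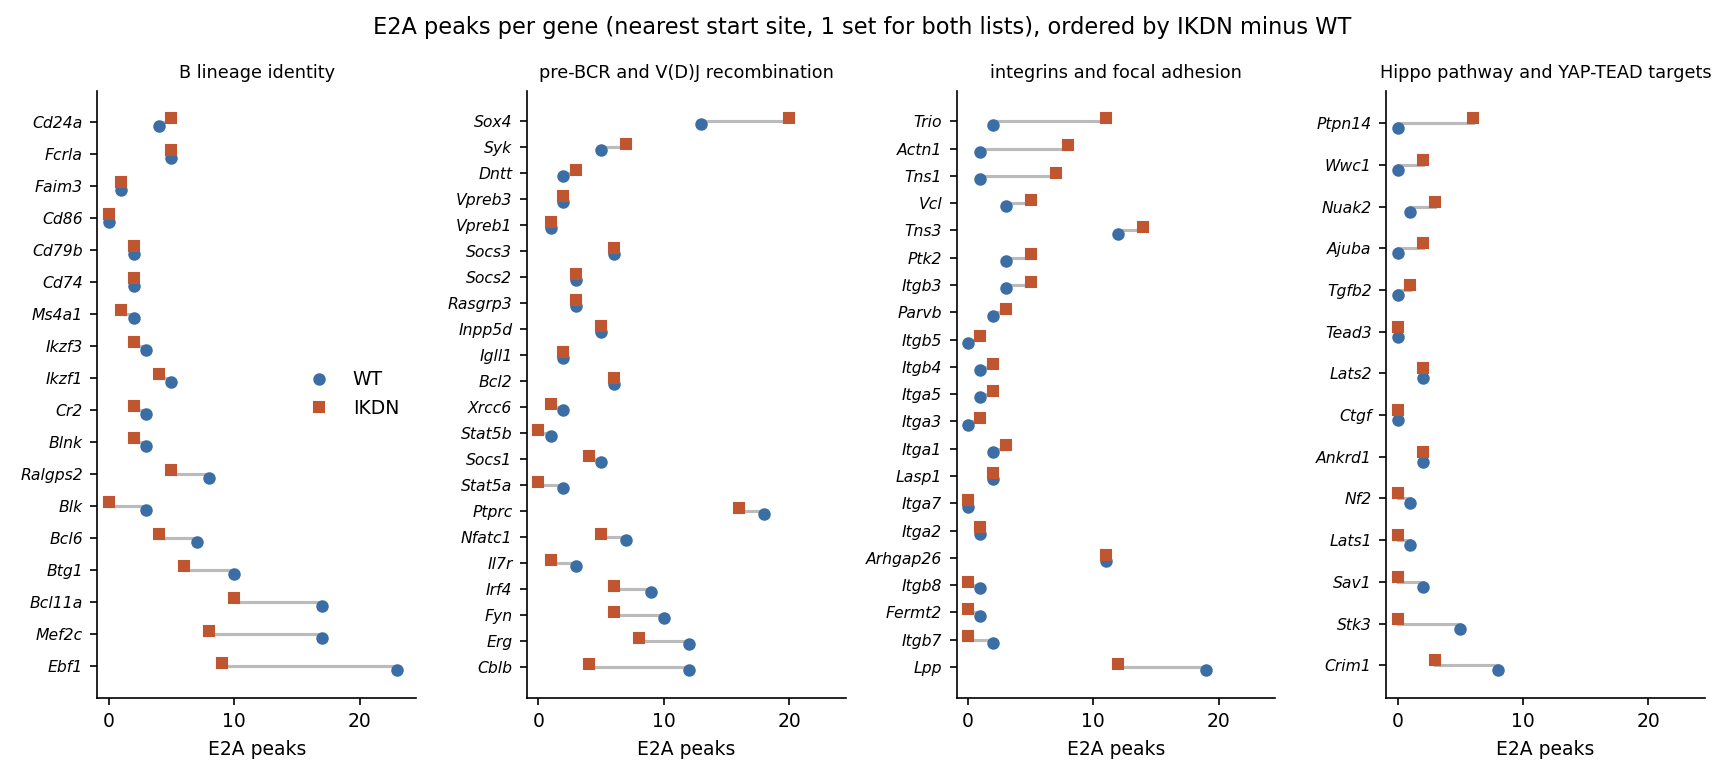
E2A peaks per gene in WT (circles) and IKDN (squares) for 4 gene lists, by the nearest of the common start sites and ordered by IKDN minus WT. Ebf1 (23 and 9) and Mef2c (17 and 8) are at the WT end of the first list, and Trio (2 and 11), Actn1 (1 and 8), Tns1 (1 and 7) and Ptpn14 (0 and 6) at the IKDN end of the last 2.

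The other lists are given beside the same 4.43% and 22.9% over all genes. Of 14 stem and progenitor factors 2 had more, Runx2 (1 and 6) and Hlf (0 and 4), and 3 had fewer, Egr1 (5 and 2), Satb1 (2 and 0) and Id2 by name. Myc had 1 and 2 by name but 17 and 6 by common start sites. Hlf, with none in WT, had IKDN peaks at 18.1, 8.92, 6.05 and 5.18, and all 4 overlapped LMO2. Of 11 cytoskeleton genes none had more and 5 fewer, among them Marcks (11 and 2), Rock1 (4 and 0) and Dock10 (8 and 4). At equal numbers 2 of them, Rock2 and Myh9, had more and 3 had fewer, and Dock10 (4 and 4) and Ezr (2 and 1) were not called. Of 19 junction and polarity genes, 12 of them with a peak, 3 had more, Cldn1 (1 and 3), Jup (0 and 2) and Mllt4 (0 and 2). Another 3 had fewer, Pvrl3 (5 and 0, all on LINE), Llgl1 and Pard6g (2 and 0 each). Of 12 cell cycle and survival genes 1, Pmaip1, had more (2 and 6), and Mdm2 and Cdkn1a (2 and 0 each by name) had fewer along with Bcl2 by name. At equal numbers Satb1, Pvrl3, Llgl1, Pard6g, Mdm2 and Cdkn1a, each with 1 WT and 0 IKDN peaks, were not called. Housekeeping genes gave no call among 9, with 19 and 12 peaks.

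**Figure D5:**
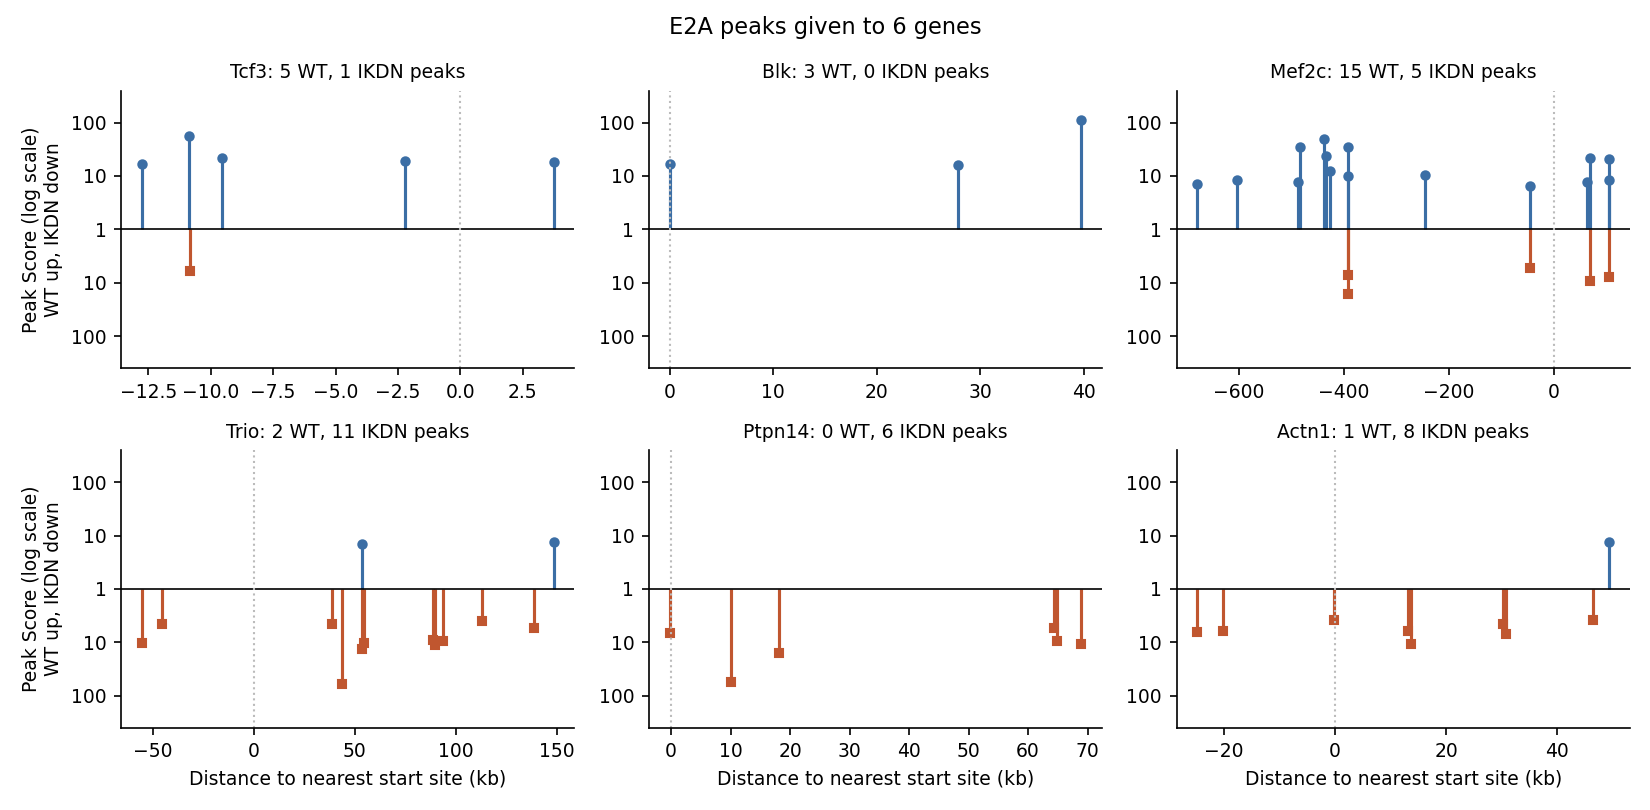
E2A peaks given to 6 genes by the deposited annotation, by distance to the nearest start site in kb (horizontal) and Peak Score on a log scale, with WT upward (circles) and IKDN downward (squares). The IKDN peak at Tcf3 lies opposite the highest of 5 WT peaks, Blk has WT peaks only, Ptpn14 has IKDN peaks only, and most Trio and Actn1 peaks are in IKDN.

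Markers of cell types were checked through E2A and through acetylated promoters, since peak lists do not measure expression. H3K27ac within 1000 bp of a start site was found at 15 of 18 B lineage genes in WT and 13 in IKDN, where Blk and Faim3 lacked it, and at all 22 pre-B receptor and recombination genes in both. It was at 4 of 10 T cell, 5 and 6 of 14 myeloid, 2 of 6 erythroid and megakaryocyte and 11 and 9 of 16 stromal fibroblast markers in WT and IKDN, the last with Col1a1, Fn1 and Acta2 in both. Hba-a1, Mpo and Elane had no such peak and no E2A peak in either genotype. Other markers of the same lists did have H3K27ac there in both genotypes, namely Cd14, Csf2ra, Csf2rb, Lyz2, Nfe2 and Tfrc. Of these, Csf2ra (1 and 1), Csf2rb (3 and 2), Nfe2 and Tfrc (2 and 1 each) had E2A peaks in both. E2A peaks at stromal markers numbered 10 and 10, with 1 gene called with more (Pdgfrb) and 2 with fewer (Col3a1 and Twist1, 3 and 0 each, mostly on LINE). T cell markers had 29 and 22, with Cd28 more (2 and 6) and Tcf7 (6 and 2) and Cd247 (6 and 3) fewer. Myeloid markers had 16 and 9, with Csf1r more (2 and 4) and Emr1 (3 and 1), Fcgr3 and Ly6c1 (2 and 0 each) fewer. Over all genes with a peak 4.43% had more and 22.9% fewer. At equal numbers Cd247 (4 and 3), Emr1 (2 and 1), Col3a1 (1 and 0) and Twist1 (0 and 0) were not called. Pdgfrb, Cd28, Csf1r, Tcf7, Fcgr3 and Ly6c1 kept their calls. The cultures are bulk, so fewer cells with a site and less binding per cell cannot be told apart, and the part of stromal cells in any difference was not tested.

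The antigen receptor loci, where B and T cells rearrange their receptor genes, were counted as whole loci. The heavy chain locus Igh (chr12:113258768-116009954) had 109 WT and 31 IKDN E2A peaks. Of its regions 81 were WT-only, 28 shared and 3 IKDN-only, and the shared ones had a median score of 62.0 in WT and 7.63 in IKDN. Most other lists were also shorter there in IKDN, with H3K27ac at 177 and 68, PAX5 at 260 and 167, IRF4 at 95 and 40 and EBF1 at 68 and 49, but H3K27me3, a mark of repressed chromatin, was at 75 and 127 and TEAD1 at 72 and 90. The T cell receptor alpha locus Tcra (chr14:52427967-54224198) had 86 and 12 E2A peaks, with H3K27ac at 90 and 18, H3K27me3 at 151 and 111 and TEAD1 at 41 and 44. Its 9 shared regions had medians of 124.7 and 7.77, all 9 were under H3K27ac in WT, and 22.2% were in IKDN. Among the 77 WT-only regions 63.6% were under H3K27ac in WT and 3.90% in IKDN. Whether the cells of each culture kept all copies of these loci was not tested.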

How the data were processed

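Peaks were called by the authors, 1 list per library, with HOMER, and the submitters' processing notes also name bcl2fastq 1.8.3, BWA and STAR and the builds mm9 and mm10. The thresholds are not given in the sources used here. The deposited Peak Score column holds a score per peak, on a scale that the file headers do not state, and the deposited distance column gives base pairs to the nearest start site. Start sites implied by these distances lay within 1000 bp of the named GRCm38 gene for 99.1% of peaks, so coordinates are given as mm10. Depth is known only through the score steps, and a longer list or a lower minimum score limits what overlap can show. Gene names that a spreadsheet had turned into dates were restored through the Entrez ID for 32 WT and 22 IKDN peaks. Overlap means at least 1 bp. Overlaps, gene counts and intervals were computed with Python 3.11.15, pandas 2.3.3, numpy 2.4.6 and scipy 1.17.1, and drawn with matplotlib 3.10.9, and the functions were tested on simulated lists and direct counts, where 59 of 59 known values were recovered. The common start sites, 20831 sites of 9182 protein-coding genes, were read back from the distances of all 33 lists. Each peak went to the site nearest its centre. Named genes are those nearest the 10 top sites of each class, the 10 largest gains and losses of peaks, up to 3 called genes each way per list, the genes of mapped factors, and the genes at the 5 largest rank changes each way. Others, such as Tns1, Vcl and Syk, were named after their values were seen. The members and the gene lists were chosen with earlier results of these data known. Alternatives were other overlap rules, subsets of peaks, chromosome 2 up to the last WT peak, other promoter and call rules and other gene assignments.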

Additional observations from a re-analysis of the deposited data

Results flagged for a closer look

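The IKDN E2A list held 7377 peaks on chromosomes outside the comparison, a signal in data that no comparison above used. On those chromosomes 52.1% overlapped LMO2 and 76.6% H3K27ac in IKDN, and 15.5% were promoter peaks. On the chromosomes compared the values were 53.8%, 76.1% and 15.7%. The WT list covers part of chromosome 2, up to 157.14 Mb, with 1775 WT and 975 IKDN peaks. Adding that part left 33.2% of WT and 59.3% of IKDN peaks shared. The other peaks were set beside no WT value.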

How the results depend on the processing

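No paired analysis was possible because each genotype has 1 library, and no library could be left out for the same reason. Shares of E-boxes in windows around peak centres were planned and not run, since no genome was used here. Leaving out LINE, keeping IKDN scores of at least 5.29 and using 1 set of start sites were chosen after seeing the data. Of 101 alternative values for 13 shares and gene counts 41 stayed within their interval or 1.5 times the count and 60 moved. Shares and counts have no sign, but 2 orders turned: genes with more outnumbered those with fewer at equal numbers, and the promoter share of WT-only regions passed that of shared ones in the top 50%, without LINE (22.4% and 20.7%) and at scores of at least 5.29. Each alternative changes which peaks or distances count, and the cause of a move was not tested further. Promoter shares of WT-only, shared and IKDN-only regions were 25.04%, 27.7% and 13.1% within 1000 bp of a start site and 28.4%, 32.3% and 17.8% within 2500 bp. Requiring 50% of both peaks gave overlaps of 28.5% of WT and 50.8% of IKDN peaks, H3K27ac in WT and IKDN at 51.6% and 42.1% of WT-only and 46.9% and 73.2% of IKDN-only regions, and promoter shares of 18.99% (shared) and 12.3% (IKDN-only). Joining peaks within 1000 bp gave 37.3% and 65.0%, H3K27ac at 46.8% and 36.1% of WT-only and 31.7% and 68.4% of IKDN-only regions, and 6.03% promoters in the last. The top 50% of each list gave 35.3% and 62.8%, promoter shares of 21.3%, 13.2% and 4.23%, and H3K27ac in WT and IKDN at 68.1% and 53.2% of WT-only, 83.2% and 81.7% of shared and 41.9% and 80.8% of IKDN-only regions. Equal numbers gave 50.5% for both lists, H3K27ac at 59.7% and 43.0% of WT-only regions, in WT at 83.3% of shared and 44.1% of IKDN-only regions, and 10.5% promoters among the latter. Without LINE the WT overlap was 38.6%, and WT-only regions had 22.4% promoters and H3K27ac at 62.6% and 50.2%. Scores of at least 5.29 gave 26.0% and 65.3%, promoter shares of 19.01%, 16.2% and 5.67%, H3K27ac at 52.4% and 42.8% of WT-only regions and in IKDN at 76.3% of IKDN-only regions. Genes with more and fewer peaks numbered 70 and 421 with a difference of at least 4, 1063 and 4251 with any difference, 186 and 766 in the top 50%, 554 and 495 at equal numbers, and 180 with more at scores of at least 5.29. By common start sites 183 of the 300 genes with more and 1252 of the 1553 with fewer were the same genes, and by gene body 126 and 785. Called genes with more minus those with fewer reversed for integrins (-1, scores of at least 5.29), growth factors (2, equal numbers) and stromal markers (1 at the top 50%, at equal numbers, without LINE and by gene body). IKDN minus WT peaks reversed by gene body for 0610039H22Rik (-1), 4930517M08Rik (-1), Itga5 (-1), Mllt4 (-1) and Ikzf1 (1), for Crim1 in the top 50% (2), at equal numbers (3) and without LINE (2), for Id2 by common start sites (2), for Irf4 at equal numbers (1) and for Tcf4 at scores of at least 5.29 (-1).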

Other observations

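Genes of the same network that lie outside the compared chromosomes had IKDN E2A peaks too. Those named here are on chromosomes 3, 4, 7 and 9, where no WT count was used. Ranks here are over the whole IKDN list. Ets1, whose product was mapped in the series, had 8 peaks, the highest scoring 110 at rank 63, and Tead1 had 7, the highest scoring 60.5 at rank 255. The transcription factor Foxo1 had 13 peaks, of which 11 overlapped LMO2, and Lef1 had 10, of which 5 did. Id3, an inhibitor of E proteins, had 8, with a highest score of 36.6. The B cell receptor subunit Cd79a had 1 promoter peak at 55.9. Pax5 had 2, both with LMO2. The integrin gene Itga9 had 10 peaks, 5 with LMO2, and Yap1 had 2, none with LMO2.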
